A study of Mus musculus with 6 samples.

Results

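The CXC chemokine genes Cxcl1, Cxcl2, Cxcl3 and Cxcl5 were examined in TKPTS cells, a mouse kidney proximal tubule line, with and without forced expression of HNF3α. They are 4 of the 29595 genes in the deposited table and were matched by gene symbol. They were chosen by name as neutrophil-attracting ligands, with their changes between these same libraries already known. Their differences between the groups are therefore given as a description, with no p-value. The Hnf3a group was 3 libraries of cells that received pcDNA3.1-Hnf3a-Flag, a plasmid that expresses Flag-tagged HNF3α, a forkhead transcription factor encoded by Foxa1. The pcDNA group was 3 libraries of cells that received pcDNA3.1-Flag, the plasmid without the insert. All 6 cultures were transfected in plates and collected 24 h later, with no cytokine or injury named in the labels for either group. Both groups carried plasmid DNA, so the contrast is HNF3α plasmid against empty plasmid and not against untouched cells. Polyadenylated RNA was sequenced in bulk. Nothing in the labels marks the 3 libraries of a group as separate experiments, so adjusted p-values here measure the spread between these libraries, which may be technical.

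CXC ligands of this family carry a glutamate-leucine-arginine motif before the first cysteines and draw neutrophils through the receptor CXCR2. Injured or cytokine-stimulated tubule epithelium is a known source of them in the kidney, where they help to recruit neutrophils during acute injury. Their genes are classical targets of NF-kB downstream of IL-1, TNF, IL-17 and Toll-like receptors, and their mRNAs are short-lived because AU-rich 3′ ends mark them for decay. In the mouse, Cxcl1 and Cxcl2 are the ligands studied most, Cxcl3 is a close relative of Cxcl2, and Cxcl5 is known mainly as an epithelial product.

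Foxa1 RNA was high in every Hnf3a library, where counts do not separate plasmid from endogenous transcripts. The estimated count of Foxa1 was 80803, 77904 and 69508 in the Hnf3a group and 2134, 2330 and 2416 in pcDNA, which is 4.97 higher on the log2 scale (SE 0.067, edgeR adjusted p = 5.99e-10). Counts per library summed to between 60473818 and 71154667, and 17824 genes had enough counts to be tested. A detection floor of 12 counts, about 3 sequenced fragments, was used, which covers counting error only. Defining markers of the labelled cell type were uneven. The epithelial genes were abundant, with Krt8 at 142 FPKM (fragments per kilobase of transcript, scaled to library size) in pcDNA and 148 FPKM in Hnf3a and Epcam at 104 FPKM in both. Krt18 passed the test, 0.20 higher in Hnf3a on the log2 scale (edgeR adjusted p = 0.00148). Genes of the mature proximal tubule were low, with 17 to 53 counts of the endocytic receptor Lrp2, 27 to 58 of Cubn and 0 to 3 of the glucose transporter Slc5a2, while the water channel gene Aqp1 had 162 to 235 counts, or 0.844 to 1.23 FPKM.

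All 4 genes lie on the plus strand of chromosome 5 (coordinates of the table, mm10) in the order Cxcl5 (chr5:90759360-90761624), Cxcl3 (chr5:90786103-90789600), Cxcl1 (chr5:90891241-90893115) and Cxcl2 (chr5:90903871-90905938). Each has 4 exons in GENCODE vM21, which places the gene at the same coordinates, and none overlaps another annotated gene. The letters just before the start of Cxcl1, Cxcl2 and Cxcl3, and of Ppbp as a neighbour for comparison, are shown because they differ in a kB motif, the letters bound by NF-kB. They run 5′ to 3′ on the plus strand of GRCm38.p6 in RefSeq and end before the annotated gene. Capitals mark matches to the kB consensus and to TATAAA.
Cxcl1 (chr5:90891135-90891240): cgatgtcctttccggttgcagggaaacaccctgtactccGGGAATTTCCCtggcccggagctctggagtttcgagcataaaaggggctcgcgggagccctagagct
Cxcl2 (chr5:90903789-90903870): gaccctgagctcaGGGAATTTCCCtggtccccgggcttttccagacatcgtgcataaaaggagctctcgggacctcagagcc
Cxcl3 (chr5:90785991-90786100): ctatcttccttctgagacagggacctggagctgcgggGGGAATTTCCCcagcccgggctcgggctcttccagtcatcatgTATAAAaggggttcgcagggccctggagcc
Ppbp (chr5:90768408-90768517): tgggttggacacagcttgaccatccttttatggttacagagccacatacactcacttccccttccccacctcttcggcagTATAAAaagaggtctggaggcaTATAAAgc

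Cxcl1, Cxcl2 and Cxcl3 held the same 10 letters, GGGAATTTCC, beginning 71, 97 and 73 bases before the RefSeq start. In each gene the consensus matched on both strands, with the second match overlapping the first by 9 letters. Among 32851 RefSeq promoter windows of the same length (250 bases before to 50 after the start), 4.51% held the kB consensus and 0.0883% held GGGAATTTCC on either strand. Ppbp and the other neighbouring ligand genes Cxcl15 and Pf4 had no match to the consensus. The window of Cxcl5 was not analysed here. The forkhead motifs TGTTTAC and TGTTTGC, present on either strand in 3.65% and 5.07% of all windows, were not found in the windows of Cxcl1, Cxcl2 or Cxcl3. The AP-1 motif TGANTCA, held by 7.81% of all windows, was likewise not found in these 3, and TTNNGNAA, a C/EBP motif held by 40.7%, was found once in Cxcl2. TATAAA on the plus strand, held by 8.32% of all windows, was found in Cxcl3 only among the 3. These letters were compared after the sequences had been seen, and a match is not evidence of binding. Absence of a match from windows this short is not evidence against binding either. Binding of HNF3α in TKPTS cells, which the paper mapped by CUT&Tag sequencing, was not examined here.

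Cxcl5 was the most abundant of the 4 ligands in every library. Its level was 551, 516 and 529 FPKM in pcDNA replicates 1, 2 and 3, and 263, 257 and 250.0 FPKM in the corresponding Hnf3a libraries. The highest Hnf3a library was below the lowest pcDNA library, so the groups did not overlap. Mean levels were 532 ± 17.7 FPKM (SD, n = 3) in pcDNA and 256 ± 6.38 FPKM in Hnf3a. The log2 fold change fitted to the counts was −1.06 (SE 0.032), or 52.1% lower in Hnf3a. By level, Cxcl5 ranked 47th of the 17824 genes tested in the pcDNA group and 125th in the Hnf3a group. It kept its place as the leading ligand with a fitted level 2.09-fold higher without the HNF3α plasmid.

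Cxcl1, the mouse ligand also called KC, came second. Its level was 181, 169 and 153 FPKM in the 3 pcDNA libraries and 88.7, 101 and 99.9 FPKM in the 3 Hnf3a libraries. Here too the groups were apart, with 153 FPKM in pcDNA replicate 3 as the lowest control value and 101 FPKM as the highest Hnf3a value. The means were 167 ± 14.2 and 96.5 ± 6.85 FPKM (SD, n = 3 each), and the log2 fold change fitted to the counts was −0.80 (SE 0.071), or 42.7% lower in Hnf3a. The spread within groups was the largest of the 3 abundant ligands, at 8.49% of the mean in pcDNA and 7.09% in Hnf3a.

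Cxcl2, also called MIP-2, ranked next. Its level was 71.4, 68.1 and 63.4 FPKM in pcDNA and 40.2, 42.9 and 42.1 FPKM in Hnf3a. The groups did not overlap, and the means of 67.6 ± 4.03 and 41.7 ± 1.40 FPKM (SD, n = 3 each) went with a fitted log2 fold change of −0.70 (SE 0.045). Among the 4 genes this was the smallest fitted difference, 38.7% lower in the Hnf3a group.

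Cxcl3 was barely expressed. It had 93, 55 and 72 estimated counts in the pcDNA libraries and 39, 36 and 36 in the Hnf3a libraries, which is above the floor of 12 counts in all 6 but amounts to few fragments each. As FPKM these were 0.393, 0.212 and 0.279 against 0.150, 0.127 and 0.134, with means of 0.295 ± 0.0911 and 0.137 ± 0.0120 (SD, n = 3 each). The fitted log2 fold change of −1.08 was as large as that of Cxcl5 but had an SE of 0.31, and pcDNA replicate 1 weighed on it: without that library it was −0.82. Cxcl3 also shares sequence with Cxcl2. The longest coding transcripts of both genes have 61 stretches of 50 bases in common, which is 6.31% of those in Cxcl3, whereas no other pair of the 4 genes shares any. Cxcl3 had between 0.512% and 0.932% as many counts as Cxcl2 in the 6 libraries, so a small share of misassigned Cxcl2 reads would be of the same size as the whole Cxcl3 signal. How reads shared by both genes were counted is not given in the sources used here, and the part of Cxcl2 reads in the Cxcl3 values was not tested.

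**Figure D1:**
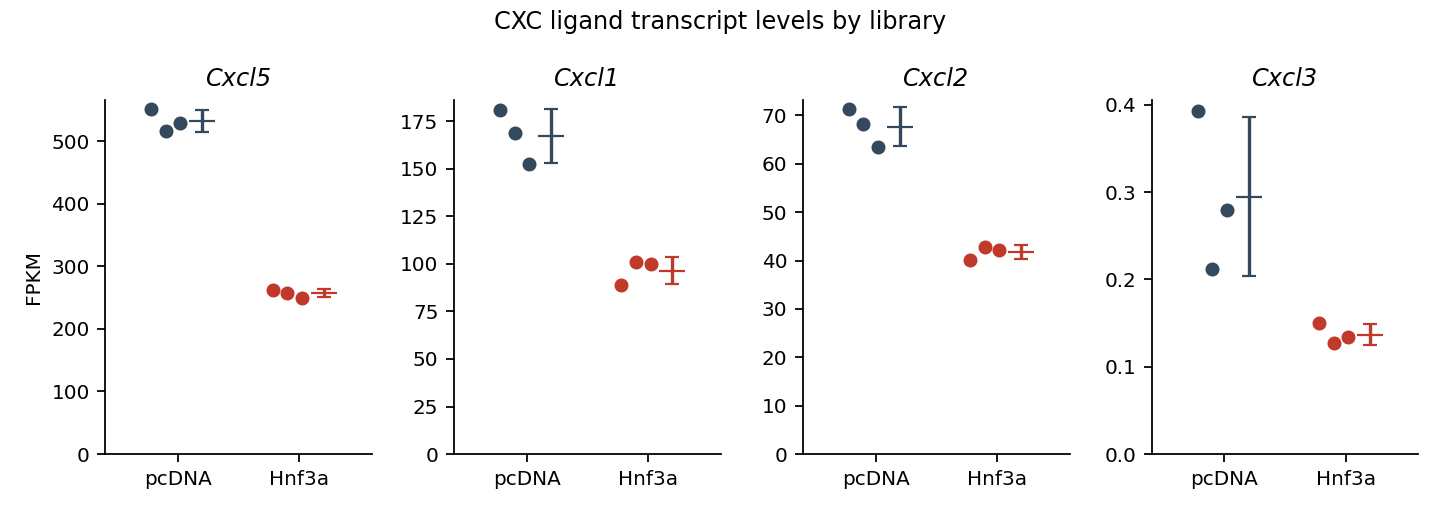
Level of each CXC ligand by library: FPKM on the vertical axis (starting at 0, with a scale of its own for each gene), pcDNA in dark blue and Hnf3a in red, 1 point per library in the order of replicates 1 to 3, and the mean with its SD beside the points. In all 4 genes the 3 Hnf3a libraries lie below the 3 pcDNA libraries, from Cxcl5 at 250.0 to 551 FPKM down to Cxcl3 at 0.127 to 0.393 FPKM.

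In the edgeR quasi-likelihood test, with a gene called at a Benjamini-Hochberg adjusted p under 0.05 over all 17824 genes, 3 of the 4 ligands (Cxcl1, Cxcl2 and Cxcl5) were called lower in Hnf3a and Cxcl3 was not called. Over all genes tested, 2.13% were called lower and 3.17% were called in either direction. Groups that did not overlap and were lower in Hnf3a were found in 4 of 4 ligands and in 9.81% of all genes (9.12% were apart in the other direction and 18.9% in either). Since this contrast was used to choose the ligands, nothing is read from these counts. The median log2 fold change of the 4 was −0.93, beside a median of 0.00085 over all genes tested. A log2 fold change at or below that of Cxcl5 was found in 179 genes, at or below that of Cxcl1 in 364, and at or below that of Cxcl2 in 503. In bulk RNA, fewer cells making a ligand and less of its RNA per cell cannot be told apart.

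Taken as a pool, the 4 ligands gave a summed level of 767 ± 31.8 FPKM in pcDNA and 395 ± 5.07 FPKM in Hnf3a (SD, n = 3 each), or 0.272% and 0.140% of all FPKM. The order Cxcl5, Cxcl1, Cxcl2, Cxcl3 held in each of the 6 libraries, and neighbours in it never overlapped between libraries of a group. The make-up of the pool was not the same in both groups. Cxcl5 was 3.04, 3.06 and 3.46 times the level of Cxcl1 in the pcDNA libraries, and 2.96, 2.54 and 2.50 times in the Hnf3a libraries. Against Cxcl2 it was 7.72, 7.57 and 8.34 times in pcDNA, and 6.54, 5.98 and 5.93 times in Hnf3a. Both ratios were lower in all 3 Hnf3a libraries, with Hnf3a replicate 1 the closest to the pcDNA group. Ppbp and Cxcl15, other CXC ligand genes of the same cluster, were then added to the pool. Cxcl5 made up 65.5 ± 1.39% of this summed level in pcDNA and 58.7 ± 1.40% in Hnf3a. Cxcl1 made up 20.6 ± 1.06% and 22.1 ± 1.51%, which overlapped between the groups.

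Within a group, Cxcl1 and Cxcl2 moved alike across libraries. On the log2 CPM scale (counts scaled to library size), Cxcl1 departed from its pcDNA mean by 0.12, 0.014 and −0.13 in replicates 1, 2 and 3, and Cxcl2 by 0.083, 0.012 and −0.095. In the Hnf3a libraries the departures were −0.11, 0.063 and 0.051 for Cxcl1 and −0.048, 0.034 and 0.014 for Cxcl2. The order of libraries was thus the same for both genes in both groups. Cxcl5 did not follow it: it was highest in Hnf3a replicate 1, by 0.041, where Cxcl1 and Cxcl2 were lowest. With 3 libraries per group this was not tested.

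Other CXC ligand genes, Ppbp, Cxcl15 and Pf4, lie inside the same cluster. Ppbp, which encodes the platelet basic protein precursor of CXCL7, starts 9.16 kb from the start of Cxcl5. It had 47.9, 45.0 and 43.3 FPKM in pcDNA and 43.8, 41.2 and 40.8 FPKM in Hnf3a, and these ranges overlap. Its log2 fold change was −0.12 (SE 0.051, edgeR adjusted p = 0.294). In the pcDNA group Cxcl2 stood above Ppbp in all libraries, whereas in the Hnf3a group, at 41.7 and 41.9 FPKM, their libraries overlapped. Ppbp made up 5.58 ± 0.080% of the 6 ligands in pcDNA and 9.60 ± 0.394% in Hnf3a (SD, n = 3 each).

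Cxcl15, known as lungkine, was counted 24, 12 and 18 times in Hnf3a and 2, 0 and 0 times in pcDNA. It was called higher in Hnf3a (edgeR adjusted p = 0.0292; 1.04% of all genes were called higher), but every pcDNA library was below the floor of 12 counts and Hnf3a replicate 2 was at it. The call was lost under 10 of 14 other settings, and the gene overlaps the annotated gene Gm24322. Pf4, the platelet factor 4 gene, had at most 9 counts in any library and was not tested.

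Farther out, the cluster is flanked by the albumin family genes on one side and by the epidermal growth factor ligands Ereg, Areg and Btc on the other. Of 22 other genes within 500 kb of any of the 4 ligands, 12 were tested, 0 were called lower at the adjusted threshold in edgeR and 1, Cxcl15, was called higher, and the median was −0.11 on the log2 scale. Before adjustment, Alb, Ankrd17 and Ppbp were lower at a p under 0.05 in edgeR (3 genes), the DESeq2 Wald test also called 0 lower, with the same 3, and limma called 0, with Alb and Ppbp (2 genes). No gene among the 12 had an Hnf3a range wholly below its pcDNA range, beside 9.81% of all genes tested. Of all genes tested, 2.13% were called lower. A count of 0 among 12 is near these shares, and nothing is read from it. The log2 fold change was below 0 in 9 of the 12 and above 0 in 3. Mthfd2l, the mitochondrial folate enzyme gene next to Cxcl2, had a log2 fold change of −0.094 (SE 0.10, edgeR adjusted p = 0.785), and Rassf6, on the other side of Cxcl5, one of −0.045 (SE 0.061, adjusted p = 0.847). Alb came nearest to the ligands in size at −0.72, but its SE was 0.24, its groups overlapped and its adjusted p was 0.270 in edgeR.

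**Figure D2:**
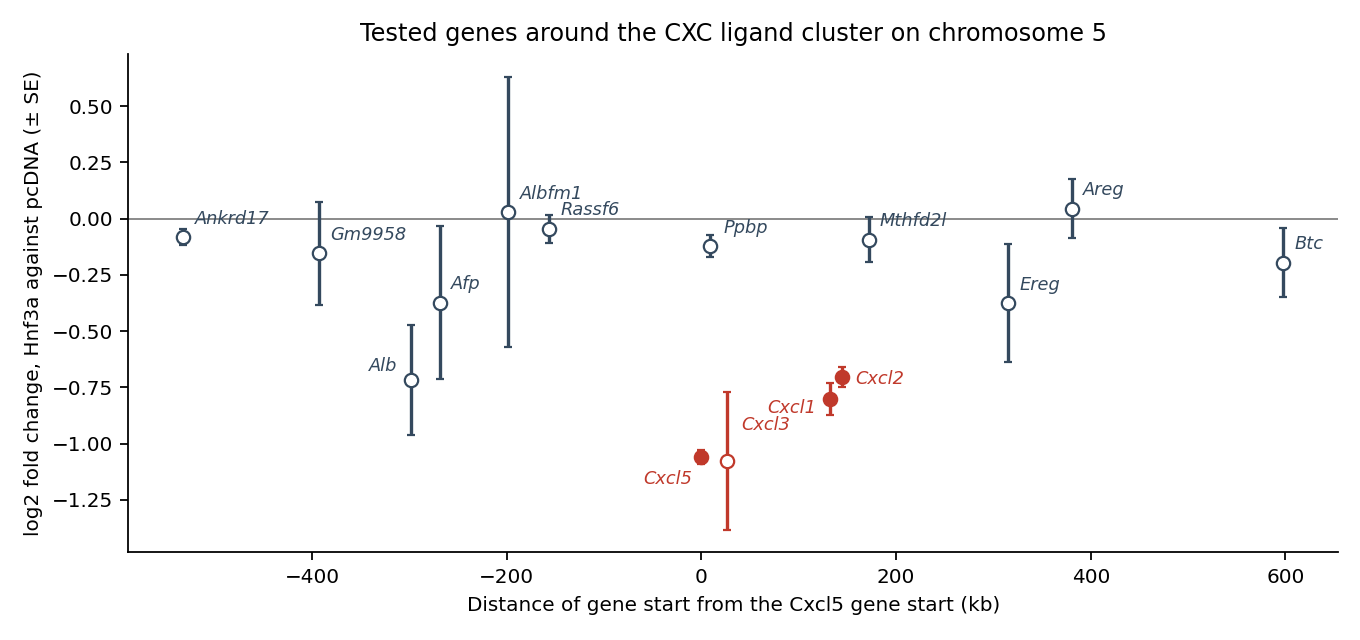
Log2 fold change (Hnf3a against pcDNA, with SE) on the vertical axis against the distance of each gene's start from that of Cxcl5 in kilobases, for the tested genes within 500 kb of the CXC ligands (red) and the ligands themselves; filled points passed the adjusted p threshold of 0.05 and open points did not. Cxcl15, whose pcDNA libraries are below the floor, is not drawn. The 4 red points lie between −1.08 and −0.70, while Ppbp, between Cxcl5 and Cxcl3, lies at −0.12.

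The receptors of these ligands were at or near 0. Cxcr2 was counted 16, 0 and 0 times in Hnf3a and 0 times in every pcDNA library, and Cxcr1 had 4 counts in 1 Hnf3a library and 0 elsewhere. Ackr1, an atypical receptor that binds chemokines without signalling, had at most 4 counts. None of these was tested. Sdc1 and Sdc4, whose heparan sulfate chains hold chemokines at the cell surface, were well expressed and differed little. Sdc1 was at 42.2 FPKM in pcDNA and 44.3 FPKM in Hnf3a (log2 fold change 0.063, edgeR adjusted p = 0.533), and Sdc4 at 193 and 197 FPKM (0.025, adjusted p = 0.782).

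Among the other chemokine ligands, several of the most abundant were also lower. Of 27 in the table, 19 were tested, 6 were called lower and 1, Cxcl15, was called higher, and the median was −0.12 on the log2 scale. Among all genes tested, 2.13% were called lower and 1.04% higher. Ccl2, the monocyte chemoattractant, was the most abundant, at 1655 ± 78.3 FPKM in pcDNA and 1107 ± 55.2 FPKM in Hnf3a (SD, n = 3 each; log2 fold change −0.59, edgeR adjusted p = 5.07e-06). Ccl5, which draws T cells and monocytes, fell by 0.37 on the log2 scale (adjusted p = 1.29e-06), and Ccl20, the ligand of CCR6, by 0.57 (adjusted p = 6.06e-06). The CXCR3 ligand Cxcl11 fell by 0.51 (adjusted p = 2.95e-05), and the membrane-bound Cxcl16 by 0.31 (adjusted p = 4.85e-05). Cxcl10, another ligand of CXCR3, fell by 0.11 (adjusted p = 0.0288), a call that was lost under 8 of 16 other settings. Each of these 6 differences was smaller in size than the −0.70 of Cxcl2, and none of these genes lies within 500 kb of the 4 ligands. Ccl7, Ccl4 and Cxcl9 were not called (edgeR adjusted p = 0.075, 0.277 and 0.300). Their log2 fold changes of −0.88, −0.90 and −1.01 were larger in size than that of Cxcl1. Their levels in pcDNA were 10.1, 2.33 and 0.179 FPKM. Of the 19 tested, 12 lay below 0 and 7 above. These ligands share all 6 libraries with Cxcl1, Cxcl2 and Cxcl5, so the comparisons are not independent of one another.

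**Figure D3:**
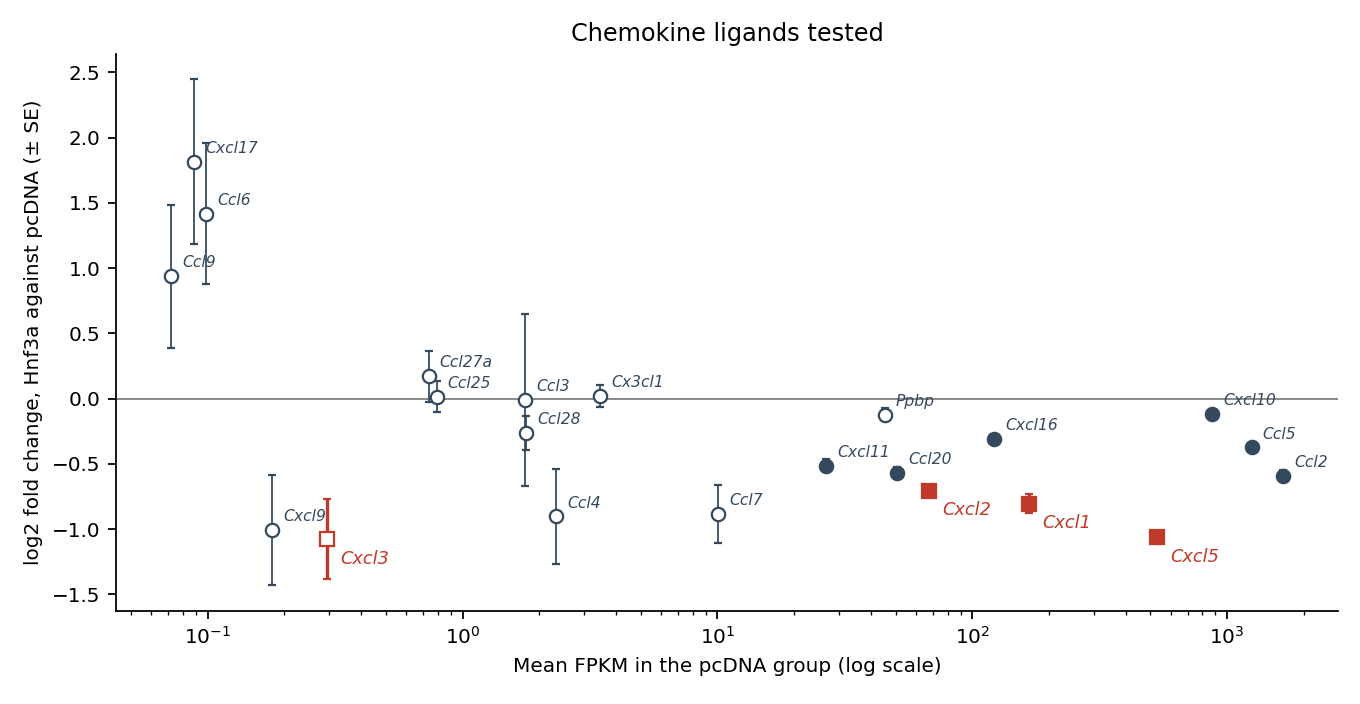
Log2 fold change (Hnf3a against pcDNA, with SE) against the mean FPKM of the pcDNA group on a log axis, for the tested chemokine ligands other than Cxcl15; red squares are Cxcl1, Cxcl2, Cxcl3 and Cxcl5, and filled symbols passed the adjusted p threshold of 0.05. Among the ligands above 20 FPKM in pcDNA, Cxcl5, Cxcl1 and Cxcl2 have the lowest values (−1.06, −0.80 and −0.70), and Ppbp alone is open. Below that level the values spread in both directions. Cxcl9, Ccl4 and Ccl7 (−1.01, −0.90 and −0.88, all open) are lower there than Cxcl1.

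The signals that induce these ligands were described through 6 gene lists, each written with earlier results of these data known. The shares to set beside the counts of every list are those over all genes tested, 2.13% called lower and 1.04% called higher. Of the inducing cytokines, 6 of 10 listed were tested. Il1a, the IL-1α gene, was called lower, at 14.7 ± 0.719 FPKM in pcDNA and 9.45 ± 0.197 FPKM in Hnf3a (SD, n = 3 each; log2 fold change −0.64, edgeR adjusted p = 2.05e-05). Tnf had 131, 194 and 114 counts in pcDNA and 111, 41 and 115 in Hnf3a, with a log2 fold change of −0.78 and an SE of 0.37 (adjusted p = 0.411). Il1b was scarce, at 29 to 58 counts in all 6 libraries. Il17c was scarce too, with 25, 24 and 42 counts in pcDNA and 14, 14 and 7 in Hnf3a. Its log2 fold change was −1.45, with an SE of 0.50 (adjusted p = 0.181). Over this list the log2 fold change was below 0 in 4 genes and above 0 in 2. Among 21 receptors and adaptors of the IL-1, TNF, IL-17 and Toll-like pathways, all tested, 1 was called and the median log2 fold change was −0.058. The called gene was Tlr2, the receptor for bacterial lipoproteins, at 23.0 ± 1.25 FPKM in pcDNA and 13.9 ± 0.593 FPKM in Hnf3a (−0.74, adjusted p = 1.23e-06).

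The NF-kB list held subunits, kinases and inhibitors, 15 genes that were all tested. Of these 7 were called, each lower, and the median log2 fold change was −0.14. The called genes were for the most part inhibitors or regulators that NF-kB itself induces. Nfkbiz, the atypical co-regulator IκBζ, fell by 0.49 on the log2 scale (edgeR adjusted p = 7.64e-07), and Nfkbia, the inhibitor IκBα, by 0.38 (adjusted p = 4.15e-05). The deubiquitinating enzyme gene Tnfaip3 fell by 0.36 (adjusted p = 3.27e-04) and the p105 precursor gene Nfkb1 by 0.32 (adjusted p = 1.83e-04). Tnip1, a partner of TNFAIP3, fell by 0.22 (adjusted p = 0.00485), and the inhibitor gene Nfkbie by 0.24 (adjusted p = 0.0168), though the second call was lost under 7 of 16 other settings. The subunit gene Nfkb2 was the seventh, with a log2 fold change of −0.14 (adjusted p = 0.0342). Rela, the subunit with the main activating domain, had a log2 fold change of −0.027 (SE 0.052, adjusted p = 0.903). RNA levels carry no measure of NF-kB activity, which was not tested.

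Among 13 other transcription factors, listed as possible factors at CXC ligand promoters, 1 was called and the median was −0.026. Action of these factors at the promoters was not tested. Fos, a subunit of AP-1, fell by 0.59 on the log2 scale (edgeR adjusted p = 1.69e-05), from 17.4 ± 0.916 FPKM in pcDNA to 11.7 ± 0.227 FPKM in Hnf3a (SD, n = 3 each).

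The mRNA decay regulators form a separate group, since each of the 4 ligand mRNAs carries AU-rich pentamers. ATTTA occurred 7 times in the 3′ UTR of Cxcl1, 11 times in Cxcl2, 5 times in Cxcl3 and 5 times in Cxcl5, which is 1.18, 1.50, 0.775 and 0.450 per 100 bases. The median over 13437 tested coding genes was 1 pentamer, or 0.118 per 100 bases. Of those genes, 0.350% were as dense as Cxcl2 and 0.700% as dense as Cxcl1, against 8.76% for Cxcl5. Ppbp had 1 pentamer, at 0.152 per 100 bases. Of the 3 abundant ligands, Cxcl5 had the lowest density and the largest difference between the groups. RNA decay was not measured, and a link between density and difference was not tested. Among 17 regulators tested, 2 were called lower, with a median of −0.041. Zc3h12a encodes Regnase-1, a ribonuclease that cuts inflammatory mRNAs, and fell from 21.4 ± 0.949 FPKM to 11.8 ± 0.608 FPKM (log2 fold change −0.86, edgeR adjusted p = 5.18e-07). Zfp36l1, a protein that binds AU-rich elements, fell by 0.17 (adjusted p = 0.0288), a call lost under 8 of 16 other settings. Zfp36, the tristetraprolin gene, had a log2 fold change of −0.089 (SE 0.067, adjusted p = 0.652).

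A list of other neutrophil-related epithelial genes, not all of which act on neutrophils directly, was mostly lower as well. Of 16 listed, 15 were tested and 11 of these were called lower, and the median of the list was −0.45 on the log2 scale. Csf3, the granulocyte colony-stimulating factor that drives neutrophil production, was at 276 ± 11.2 FPKM in pcDNA and 134 ± 2.30 FPKM in Hnf3a (SD, n = 3 each), a log2 fold change of −1.04 (edgeR adjusted p = 1.03e-09) that is close to the −1.06 of Cxcl5. Lcn2, the siderophore-binding injury marker also called NGAL, was at 374 ± 12.2 and 212 ± 8.98 FPKM (−0.83, adjusted p = 1.10e-08). Saa3, an acute-phase protein, was scarcer and fell by 1.82 on the log2 scale (adjusted p = 3.36e-08). The cytokine Lif fell by 0.44 (adjusted p = 1.28e-06), the complement component C3 by 0.63 (adjusted p = 7.19e-06) and Anxa1, the annexin that limits neutrophil entry, by 0.37 (adjusted p = 3.21e-05). The list thus held products with opposite actions on neutrophils, and both kinds were lower. Over the union of all these lists, including the neighbours and other ligands, 118 genes were tested, 29 were called lower and 1 higher, and the median log2 fold change was −0.093. Over all genes tested, 2.13% were called lower and 1.04% higher, and the lists were written with earlier results known. The lists were not compared with one another by a test.

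**Figure D4:**
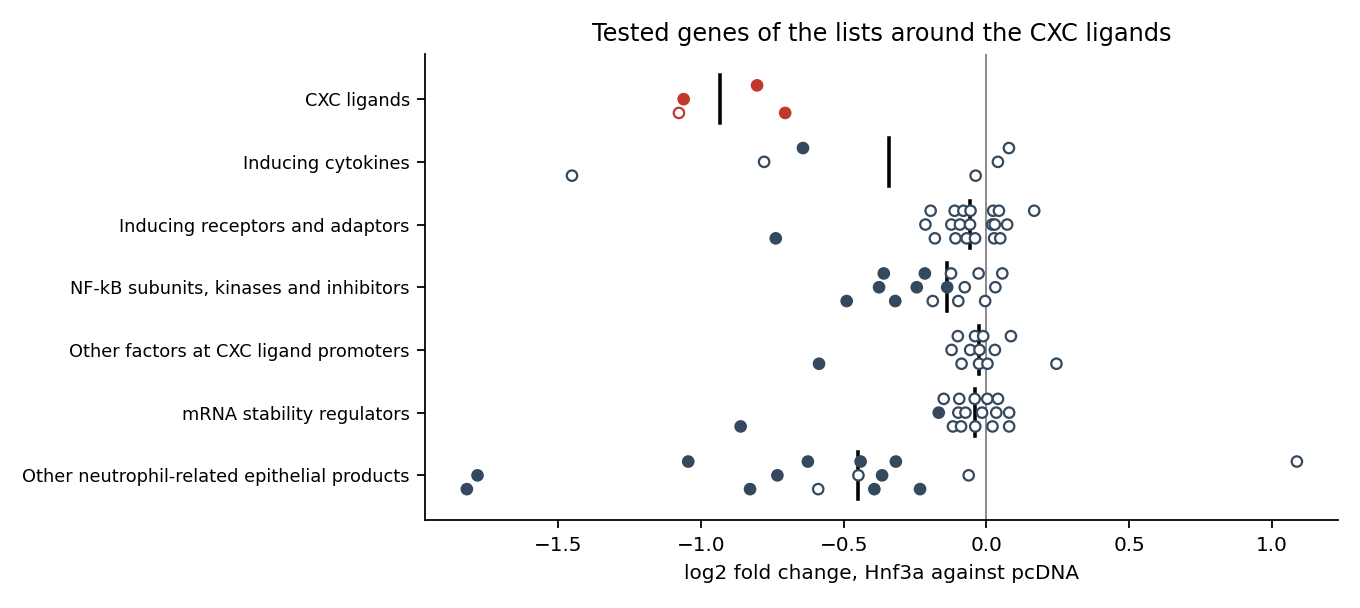
Log2 fold change (Hnf3a against pcDNA) on the horizontal axis for each tested gene of 7 groups, 1 point per gene, with a vertical bar at the median of each group; filled points passed the adjusted p threshold of 0.05, and the CXC ligands are red. The medians run from −0.93 for the CXC ligands and −0.45 for the other neutrophil-related products to −0.026 for the other promoter factors.

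The genes whose libraries most resembled the ligands were found by the root mean square difference, over the 6 libraries, between each gene's centred log2 CPM and the mean of the 4 ligands, among 17820 genes. Ccrl2, an atypical receptor that binds chemerin, was the nearest at 0.073, followed by Zc3h12a at 0.082, the Notch target Hey1 at 0.096, the keratin gene Krt16 at 0.097, Csf3 at 0.098, Tlr2 at 0.099, the glucose transporter gene Slc2a6 at 0.10, the matrix protein gene Ltbp2 at 0.11, Lcn2 at 0.11 and Acod1, the itaconate-producing enzyme gene, at 0.11. Of these 10, Zc3h12a, Csf3, Tlr2 and Lcn2, were also on the lists above. Ccrl2 was at 12.4 FPKM in pcDNA and 6.79 FPKM in Hnf3a, and Acod1 at 94.3 and 56.9 FPKM. All points share the same 6 libraries, and the likeness is mostly the group difference itself.

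Of the genes other than the ligands whose RefSeq promoter window held the kB consensus, 729 were tested, and 36 (4.94%) were called lower and 7 (0.960%) higher, with a median log2 fold change of −0.0043. Of those without it, 10903 were tested, and 235 (2.16%) were called lower and 136 (1.25%) higher, with a median of 0.0020. With the exact letters GGGAATTTCC, 12 were tested and 2 were called lower, Nfkbia and the interferon-induced guanylate-binding protein gene Gbp5. Of all genes tested, 2.13% were called lower and 1.04% higher. These shares were not compared by a test, and any part of the motif in the changes was not tested.

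Markers of other cell types were checked because neutrophils, macrophages and fibroblasts also make or answer these ligands. Of the 10 neutrophil genes, Elane, Mpo, Retnlg, Csf3r, Camp and Cxcr2 were at or near 0 in both groups, with at most 16 counts in any library. S100a8 had 14 to 54 counts in the 6 libraries. S100a9 had 51, 9 and 25 counts in Hnf3a and 0, 39 and 0 in pcDNA. The summed level of 21.5 to 29.1 FPKM came mostly from Ly6g and Ltf, of which Ltf was called lower in Hnf3a. The fibroblast list differed between libraries of the Hnf3a group. Its summed level was 0.237 FPKM in Hnf3a replicate 1, 7.65 and 9.52 FPKM in replicates 2 and 3, and 0.107 to 0.169 FPKM in pcDNA. Col1a1 alone was counted 33, 2694 and 3099 times in Hnf3a and 0, 16 and 5 times in pcDNA. Macrophage genes above the floor numbered 2, 10 and 10 of 10 in the Hnf3a libraries and 4, 4 and 3 in pcDNA. Hnf3a replicate 1, which had less of these markers than the other 2, had 263 FPKM of Cxcl5, 88.7 of Cxcl1 and 40.2 of Cxcl2, beside 250.0 to 257, 99.9 to 101 and 42.1 to 42.9 in the other 2. The part of these other cell types in the ligand levels was not tested. Of 6 endothelial genes, 5 were tested and 2 were called, Cdh5 lower and Tek higher, both under 1 FPKM. Among all genes tested, 3.17% were called in either direction.

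**Figure D5:**
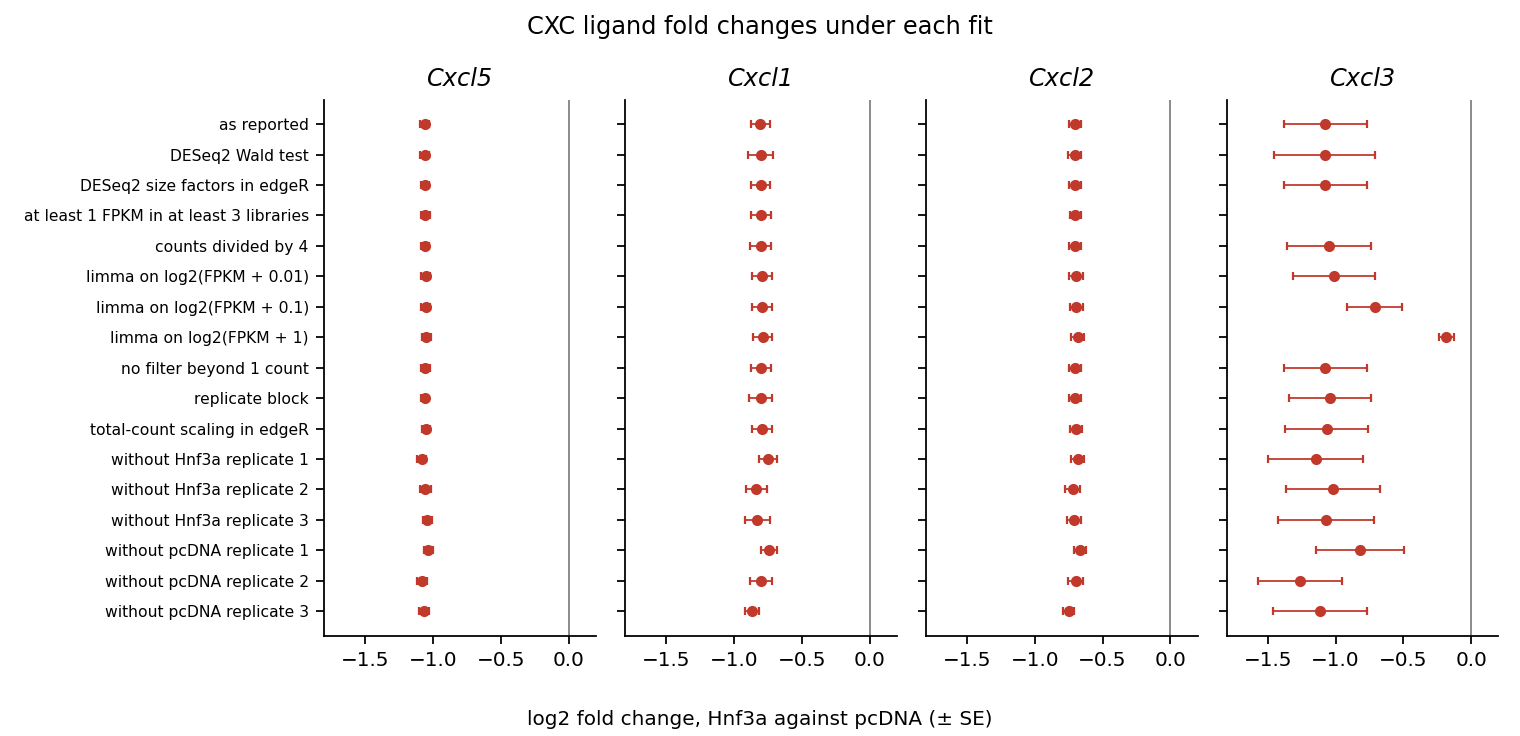
Log2 fold change (Hnf3a against pcDNA, with SE) of each CXC ligand on the horizontal axis under the reported fit and each other filter, scaling, test or set of libraries named on the vertical axis. Cxcl5 stays between −1.08 and −1.03, Cxcl1 between −0.87 and −0.74 and Cxcl2 between −0.75 and −0.66, while Cxcl3, with no point under the FPKM filter, runs from −1.26 to −0.19.

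Across 16 other settings, Cxcl5, Cxcl1 and Cxcl2 were called lower in each, and their values moved little, as the plot of settings shows. Every setting drew on the same 6 libraries with which the ligands were chosen. These calls therefore describe the effect of processing only and add no support for the difference. Cxcl3 was called under none of the 15 that gave it a value, and its lowest size, −0.19, came from adding 1 to FPKM values of at most 0.393, which shrinks the change of a low gene.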

How the data were processed

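RNA of 6 TKPTS cultures (3 Hnf3a, 3 pcDNA) was analysed from the table the authors deposited, which holds FPKM values (fragments per kilobase and per library size) and estimated counts for each gene. The deposited estimated counts are whole numbers, and 1 fragment was taken as about 4 counts because more genes sat at 4 than at 3 or 5. Libraries were strand-marked and carried molecular identifiers, per the labels. The submitters' processing notes name cutadapt 1.9, HISAT2 2.0.4, UMI-tools, StringTie 1.3.4d, DESeq2, edgeR and the build mm10, without their roles. Use of strand in counting is not given in the sources used here.

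The ligands and all gene lists were chosen with earlier results of these data known. Counts were filtered with filterByExpr, scaled by TMM and tested two-sided, group only, with edgeR 4.0.16 (robust glmQLFit, then glmQLFTest) under R 4.3.3. The Benjamini-Hochberg adjustment ran over 17824 genes, with a threshold of 0.05. Each SE is the size of the log2 fold change over the root of its F statistic. The procedure was checked on simulated data. No 2 libraries held identical values. Named genes were the 4 ligands, Foxa1, up to 6 called genes per list by smallest p, all receptors and related ligands, and the 10 genes most like the ligands. Nfkb2, Tnf, Il1b, Il17c, Rela, Zfp36, Ccl4, Ccl7, Cxcl9, the named cluster neighbours and marker genes, and Gbp5 were named beyond this rule after their values were seen. Alternatives were other filters, scalings and pseudocounts (0.01, 0.1 and 1 FPKM) with limma 3.58.1, the Wald test of DESeq2 1.42.0, counts divided by 4, a replicate block and leaving out each library. Promoter windows came from RefSeq (GRCm38.p6) and exons and 3′ UTRs from GENCODE vM21.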

Additional observations from a re-analysis of the deposited data

How the results depend on the processing

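Cxcl1, Cxcl2 and Cxcl5 were called lower under all 16 alternatives, and no gene followed through them changed direction. The receptors of the ligands, the marker genes, Nfkb2, Tnf, Il1b, Il17c, Rela, Zfp36, Ccl4, Ccl7, Cxcl9 and Gbp5 were not followed. Cluster neighbours other than Ppbp and Cxcl15 were examined only for calls, with the DESeq2 Wald test and limma. The ligands were chosen with this contrast known, so these calls show only how the processing matters. The median log2 fold change of the 4 ligands was −0.93 as reported. It was −0.80 with genes at 1 FPKM or more in at least 3 libraries, which leaves 3 ligands, and −0.75 and −0.74 with limma on log2(FPKM + 0.1) and log2(FPKM + 1). Leaving out 1 library gave −0.97 to −0.78, the last without pcDNA replicate 1. The percent of all genes called was 3.17 as reported, 4.96 with the FPKM filter, 1.97 with no filter beyond 1 count, and 1.52, 1.49 and 1.39 with limma at pseudocounts of 0.01, 0.1 and 1. It was 1.44 to 3.47 with 1 library left out, and fell by over 1.5 times without Hnf3a replicate 2 (1.44) and without pcDNA replicate 1 (1.54), 2 (1.44) or 3 (1.88); the cause was not tested. The 30 genes called over the union of lists became 22 to 34. Same-numbered libraries did not deviate together over all genes tested (correlations of −0.041, −0.010 and 0.010). A factor shared by a pair that touched few genes would not show in these values, and sharing of a culture or day was not tested. With the replicate block, the median of the ligands was −0.92, 2.60% of all genes were called and 29 list genes were called. Allowing 1 mismatch in the kB consensus raised the share of promoter windows from 4.51% to 45.5%. Ranking likeness by Pearson's r shared 1 of 10 genes, Slc2a6, with the ranking used. Depth limits Cxcl3, Cxcl15 and the receptors, at a few fragments per library.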
